A study of Mus musculus with 12 samples.

Results

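The liver response to refeeding with fructose was examined in mice labelled MED13-LKO, in which Med13 is described as deleted in the liver. The comparison set 2 fructose-fed livers against 2 fasted livers, 4 of the 12 RNA-seq libraries in the series, and covered 12366 of the 16346 genes in the deposited table, those with a mean of at least 10 normalized counts over the 12 libraries. All mice were C57BL6J, 12 weeks old and carried Med13 fl/fl alleles; the MED13-LKO mice also carried Alb-Cre, a recombinase under the albumin promoter that acts mainly in hepatocytes, and the control mice did not. Fasted mice went 16 h overnight without food, and fed mice were then given chow for 4 h with drinking water holding 30% fructose or 30% sucrose. Each of the 6 groups (control or MED13-LKO; fasted, sucrose-fed or fructose-fed) had 2 mice. In the study's schedule the fasted mice were killed earlier in the day than the fed mice, so food and time of day cannot be told apart, and fructose water came with chow, with no chow-and-water group among these libraries.

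Values are normalized counts (estimated reads per gene divided by a library's size factor), given for replicate 1 and then replicate 2. Differences are log2 fold changes on log2(normalized count + 1), fructose-fed minus fasted, ± SE. A gene was called, and is said to have risen or fallen, at a Benjamini-Hochberg adjusted p under 0.05 over all 12366 genes in limma, fitted to all 12 libraries. With 2 mice a group, an exact permutation test of 1 gene cannot go below p = 0.333. Single-gene tests therefore rest on a gene's spread that limma pools over all 6 groups and draws toward that of other genes.

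Refeeding after a fast moves the liver from making glucose to storing carbohydrate as glycogen and fat. Insulin keeps FOXO1 out of the nucleus, which lowers genes such as Igfbp1 and Pck1, and raises SREBP-1c, while phosphorylated sugars activate ChREBP, which binds carbohydrate response elements in glycolytic and lipogenic genes. Fructose is phosphorylated by ketohexokinase and reaches the triose phosphates past the main control step of glycolysis. MED13 is the subunit that ties the kinase module (CDK8 or CDK19, cyclin C, MED12) to the core of Mediator, the complex that links such factors to RNA polymerase II.

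Total RNA of the targeted gene was no lower in MED13-LKO than in control livers on average. Med13 stood at 808 and 899 in the fasted and 681 and 1055 in the fructose-fed libraries labelled MED13-LKO, against 674 and 796 and 607 and 778 in the control libraries. Among fasted mice both MED13-LKO values lay above both control values, among fructose-fed mice the ranges overlapped, and the MED13-LKO means were the higher in both (853 against 735 fasted, 868 against 692 fructose-fed). A total per gene does not show the loss of single exons, so it does not check the labels, and "MED13-LKO" below means the libraries that carry that label. The fructose response of Med13 itself was -0.01 ± 0.20 (adjusted p = 0.988). Of the 6 kinase module genes, 1 was called: Med13l, the paralog of Med13, fell from 342 and 409 to 226 and 215, a change of -0.76 ± 0.15 (adjusted p = 0.0184), and was not called without fasted replicate 2 or fructose-fed replicate 2.

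The 4 libraries summed to between 17310000 and 18740000 normalized counts, and control libraries to between 21060000 and 24150000. The 100 most abundant genes held 44.9 to 46.4% of the 4 libraries' counts. Alb held 8.86 and 9.05% in the fasted and 7.97 and 8.34% in the fructose-fed libraries. The 6 hepatocyte markers summed to 2148960 and 2136160 in the fasted and 1792920 and 1852850 in the fructose-fed mice. Of these 6, 5 had negative differences, the median was -0.22, and none was called. The 6 Kupffer cell markers summed to 5059 and 5641 fasted against 5185 and 5861 fructose-fed, the 6 stellate cell markers to 5475 and 5748 against 5031 and 5264, the cholangiocyte markers to 576 and 544 against 534 and 849, and the lymphocyte and neutrophil markers to 266 and 276 against 323 and 377; none was called. The 6 sinusoidal endothelial markers summed to 5233 and 5219 in the fasted and 4222 and 3686 in the fructose-fed mice, all 6 had negative differences, and Bmp2 (-1.02) and Clec4g (-0.49) fell. The 4 red blood cell markers summed to 9832 and 8912 against 5311 and 4334, with a median difference of -0.98, and Hbb-bs fell by 0.96. Clec4g and Hbb-bs were not called when any of the 4 libraries was left out, nor Bmp2 without fructose-fed replicate 2. The 2 adipocyte markers and the 1 pancreatic acinar marker in the deposited table summed to no more than 5.4 in any of the 4 libraries. In whole tissue, fewer cells of a type and less RNA per cell cannot be told apart, and the part of these shifts in the results below was not tested.

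Fructose refeeding changed 807 genes in the MED13-LKO livers, 6.53% of those tested. Of these, 364 rose (2.94%) and 443 fell (3.58%). The median change was 0.75 for the genes that rose (quartiles 0.54 and 1.13) and -0.72 for those that fell (quartiles -1.02 and -0.50). A change of more than 1 on the log2 scale was seen in 228 genes (1.84%), 111 up and 117 down. The median over all tested genes was -0.0051, and each gene list below is read against that median and those shares. In 54.8% of all tested genes the 2 fasted and the 2 fructose-fed values did not overlap, so a lack of overlap alone says little.

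The number of calls depended on single libraries. It was 680 without fructose-fed replicate 1 and 65 (19 up, 46 down) without fructose-fed replicate 2. It was 244 without fasted replicate 1 and 173 without fasted replicate 2. With the spread estimated from the 4 libraries alone, 414 genes were called, 35.3% of them up in place of 45.1%. When libraries were scaled to equal 75th percentiles, 798 genes were called and 54.9% of them rose, while the median over all genes moved to 0.038.

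**Figure D1:**
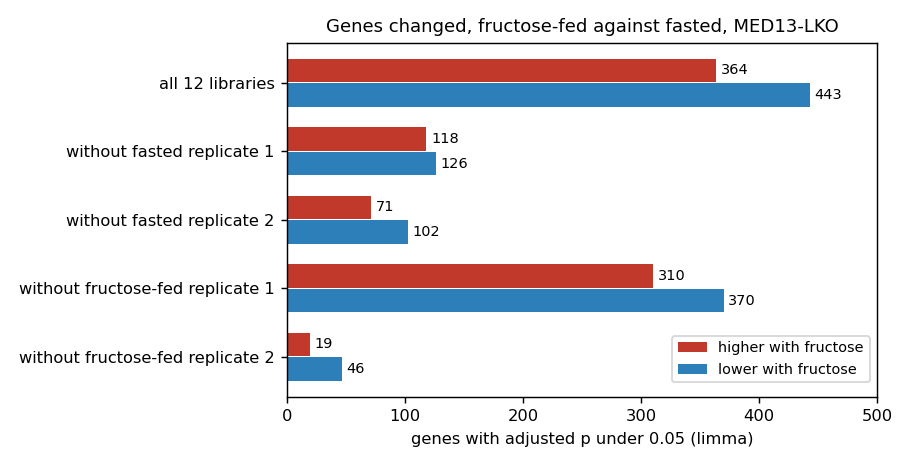
Number of genes called in limma (x axis, adjusted p under 0.05) in fructose-fed against fasted MED13-LKO livers, higher (red) and lower (blue), with all 12 libraries and without each of the 4 libraries in turn. The counts with all libraries are 364 and 443, and they are lowest, 19 and 46, without fructose-fed replicate 2.

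Called genes were ranked if they averaged at least 100 normalized counts over the 4 libraries and did not overlap between groups. Genes with a symbol of the form Gm and digits, Rik or -ps, or with a bare identifier, were left out. The 12 largest rises so ranked were in Angptl8, Fasn, Elovl6, Mid1ip1, Aacs, Hist1h1c, Hcn3, Mvd, Srebf1, Tuba1c, Klhdc7a and Oasl1. Angptl8 (ENSMUSG00000047822; chr9:21835510-21837347, plus strand, inside the span of Dock6 on the other strand) encodes a secreted regulator of lipoprotein lipase. It had 549 and 323 normalized counts in the fasted and 3825 and 4696 in the fructose-fed mice, a difference of 3.33 ± 0.25 (adjusted p = 0.000543). Both fed values were several times every fasted value. In the control livers the difference was 3.47 ± 0.25, and with sucrose in MED13-LKO it was 3.65 ± 0.25.

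The 12 largest falls were in Fam107a, Igfbp1, Mt2, Gadd45g, Angptl4, Ccn2, Mt1, Depp1, Fkbp5, Tmc7, Crebrf and Lpin2. They take in hormone-responsive secreted proteins, metallothioneins and a glucocorticoid-induced co-chaperone. Fam107a, the largest, went from 608 and 303 to 41.9 and 5.04, a difference of -4.74 ± 0.89 (adjusted p = 0.0158), and the 2 fructose-fed values themselves were far apart. It was not called when either fasted library or fructose-fed replicate 2 was left out. In the control livers, where it started at 31.6 and 98.8, the difference was -2.11 (adjusted p = 0.194).

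**Figure D2:**
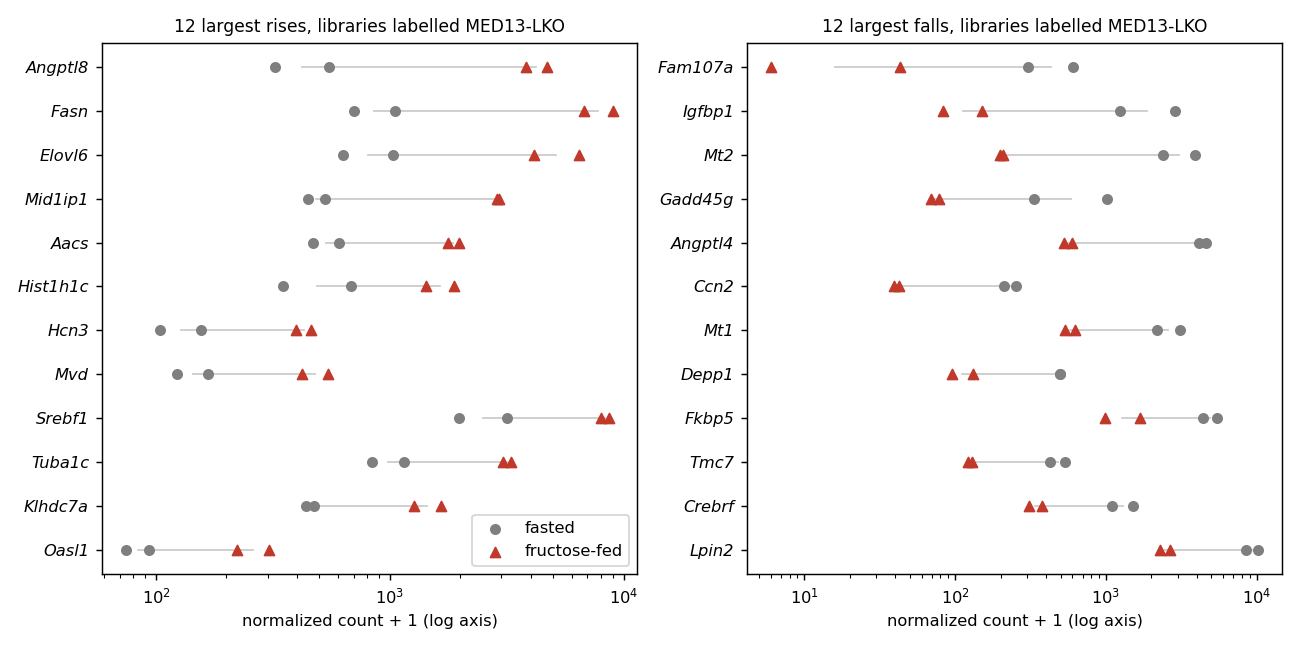
Normalized counts + 1 (log axis) of the 12 largest rises and the 12 largest falls in the MED13-LKO libraries, 1 point a mouse (grey circles fasted, red triangles fructose-fed), with a grey line between the group means on the log scale. Angptl8 goes from 549 and 323 to 3825 and 4696, and the 2 fructose-fed points of Fam107a lie furthest apart.

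The enzymes of de novo lipogenesis, which turn acetyl-CoA into fatty acids, rose in 5 of 15 tested genes and fell in none. The list median was 0.78, and 12 of 15 differences were positive. Fatty acid synthase, Fasn, went from 1050.3 and 699 to 6768 and 9007, a difference of 3.19 ± 0.37 (adjusted p = 0.00271). Both fed values were several times both fasted values. Elovl6, which elongates palmitate, rose from 1030.4 and 628 to 4123 and 6455 (2.68 ± 0.41, adjusted p = 0.00681), a call lost without fasted replicate 2 or fructose-fed replicate 2. Mid1ip1, an activator of acetyl-CoA carboxylase, rose from 528 and 445 to 2928 and 2864 (2.58 ± 0.18, adjusted p = 0.000543), with replicates close together in both groups. ATP citrate lyase, Acly, which makes cytosolic acetyl-CoA, rose by 1.59. Acaca, the acetyl-CoA carboxylase that supplies malonyl-CoA, rose by 1.30.

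The rest of the list did not pass. Scd1, the stearoyl-CoA desaturase, had 13233 and 9808 in the fasted and 19399 and 19763 in the fructose-fed mice, a difference of 0.78 ± 0.50 (adjusted p = 0.387). Thrsp, a lipogenic regulator related to Mid1ip1, had 11640.4 and 2971 against 11950.2 and 14834, so that 1 fasted mouse lay almost as high as the fed mice. Me1, the cytosolic malic enzyme, had a difference of 0.47 ± 0.17 (adjusted p = 0.128). With the spread taken from the 4 MED13-LKO libraries alone, 7 genes of the list rose. That setting called Scd1, Me1 and Pnpla3 and lost the call of Acaca. Fasn and Mid1ip1 were called under each of the 11 alternatives run, while the list kept 2 called genes without fasted replicate 2 and 2 without fructose-fed replicate 2. In control livers 6 of the 15 rose and the median was 1.44.

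Among the factors that drive these genes, the SREBP-1 gene moved and the ChREBP gene was not called. Srebf1 (chr11:60199089-60222581, minus strand; its end overlaps Rai1 by 109 bases) rose from 3170.1 and 1978 to 8034 and 8629, a difference of 1.73 ± 0.27 (adjusted p = 0.00716). It was not called without fasted replicate 2 or fructose-fed replicate 2. Mlxipl, the ChREBP gene, stood at 3799 and 3464 fasted and 3731 and 3504 fructose-fed, a difference of -0.00 ± 0.13 (adjusted p = 0.989). The groups overlapped almost fully. The table holds 1 value a gene, so the alpha and beta transcripts of ChREBP are not separated. Mlx, the partner protein of ChREBP, rose by 0.51 (adjusted p = 0.0334) but was not called when any of the 4 libraries was left out.

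The 2 Insig genes, whose proteins hold SREBPs in the endoplasmic reticulum, went in opposite directions. Insig1, itself a target of nuclear SREBP, rose from 5679.7 and 5083 to 11015 and 12773 (1.14 ± 0.28, adjusted p = 0.0383), and was not called when any of the 4 libraries was left out or with the replicate number as a block. Insig2, whose liver transcript is high in fasting, fell from 2422 and 2402 to 1236 and 1485 (-0.83 ± 0.12, adjusted p = 0.00506), with fasted mice almost equal, and was called under each of the 11 alternatives. The whole list of 11 factors had 3 genes up, 1 down and a median of -0.0049.

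Genes associated with ChREBP rose in 3 of 12 cases (Angptl8, Pklr and Tkfc), fell in none and had a median of 0.43. It kept 1 call without fasted replicate 2, 1 without fructose-fed replicate 2 and 2 without fructose-fed replicate 1. The control livers had 5 risen and a median of 0.74. Pklr, liver pyruvate kinase and a long-studied ChREBP target, is shown here because the 250 bases before its liver start hold a match to the carbohydrate response element consensus, printed in capitals 170 bases before the start (RefSeq, GRCm38.p6, chr3:89136373-89136622, plus strand).
Pklr: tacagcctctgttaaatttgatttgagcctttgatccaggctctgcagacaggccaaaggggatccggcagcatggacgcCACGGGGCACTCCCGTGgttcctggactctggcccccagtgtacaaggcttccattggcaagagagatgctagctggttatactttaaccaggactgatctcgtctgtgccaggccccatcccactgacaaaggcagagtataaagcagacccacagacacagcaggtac
Its counts went from 2695 and 1502 to 4558 and 4808, a difference of 1.22 ± 0.25 (adjusted p = 0.0218). The fed mice lay close together above both fasted mice, which were further apart. Without fasted replicate 2, or without either fructose-fed library, it was not called.

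The consensus, 2 E-box-like parts 5 bases apart searched on both strands, was found in the windows of 37 of 27025 genes (0.137%) from 250 bases before to 50 after the start, and in 12 of the 39 windows that hold it the letters CACGTG lie inside it. Of the genes that rose, 299 had a window and 2 held the element, Pklr and Pde4b (a phosphodiesterase, up by 1.19, adjusted p = 0.0207). Of 354 with a window among genes that fell, 0 held it. The plain E-box CACGTG was in the windows of 15.4% of the genes that rose, 13.3% of those that fell and 11.6% of all tested genes with a window. The shorter sterol element TCACNCCAC was in 2.01%, 1.13% and 1.46%. These are matches of letters, not sites.

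Hcn3, a cation channel gene, is annotated on the strand opposite to Pklr, and the ends of the 2 genes overlap by 711 bases. It rose from 155 and 103 to 397 and 459.9 (1.75 ± 0.30, adjusted p = 0.0115), a call lost without fasted replicate 2 or fructose-fed replicate 2, and 16.4% of its 31-base subsequences occur in other genes. Strand use is not given for the counting, so reads in the shared stretch cannot be assigned to either gene with certainty.

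Of 9 genes for uptake and breakdown of fructose, 1 rose, where 2.94% of all tested genes rose. None fell, and the list median was 0.16. Tkfc, triokinase, which phosphorylates glyceraldehyde, rose from 3033 and 2048 to 4498 and 5378 (0.98 ± 0.22, adjusted p = 0.0284), but was not called without fasted replicate 2 or fructose-fed replicate 2. Khk, ketohexokinase, had 998 and 668 against 1037 and 1369 (0.54 ± 0.21, adjusted p = 0.16). Both fed values of Khk lay above both fasted values without passing the test. Slc2a5, the fructose transporter GLUT5, was low, with 135 and 88.6 against 83.1 and 57.1.

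Glycolysis had 2 of 13 genes risen, Pklr and Eno1 (0.47), none fallen and a median of 0.23. Neither was called without fasted replicate 2 or without fructose-fed replicate 2. Of 8 cytosolic NADPH genes none was called.

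Gluconeogenesis had 3 of 12 genes fallen, none risen and a median of -0.45. G6pc, the catalytic subunit of glucose-6-phosphatase that releases free glucose, was not among them. It had 5887 and 9423 normalized counts in the fasted, 8529 and 9317 in the fructose-fed and 5895 and 6498 in the sucrose-fed MED13-LKO mice. The fructose-fed values lay within the fasted range, and the difference was 0.26 ± 0.28 (adjusted p = 0.645). In control livers the counts were 7865 and 10424 fasted, 3665 and 7029.6 fructose-fed and 3077 and 3178 sucrose-fed, a fructose difference of -0.83 ± 0.28 (adjusted p = 0.119). The responses of the genotypes differed by 1.09 ± 0.40 (adjusted p = 0.456), which did not pass. Ordered by mean, the groups ran from control sucrose-fed (3127) through control fructose-fed (5347), MED13-LKO sucrose-fed (6196), MED13-LKO fasted (7655) and MED13-LKO fructose-fed (8923) to control fasted (9144). Neighbours in that order overlapped, save that control sucrose-fed lay below all others.

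Pck1, the cytosolic PEP carboxykinase, had 66545 and 66143 in the fasted and 15349 and 8275 in the fructose-fed mice. Both fed values were far below both fasted values, but the difference of -2.56 ± 0.71 missed the threshold (adjusted p = 0.0609). Its standard error is shared by all groups, and the 2 fructose-fed control mice had 7416 and 48079. With the spread taken from the 4 MED13-LKO libraries alone, Pck1 was called, as it was under no other alternative. Foxo1, the factor itself, fell from 1564 and 1355 to 579 and 457 (-1.499 ± 0.22, adjusted p = 0.00644), and was not called without fructose-fed replicate 2. Ppargc1a, the coactivator PGC-1 alpha, fell by 0.88 (adjusted p = 0.0459), and Creb3l3, a fasting-induced liver factor, by 0.50 (adjusted p = 0.0115). Ppargc1a was not called when any of the 4 libraries was left out, nor Creb3l3 when either fasted library or fructose-fed replicate 2 was.

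**Figure D3:**
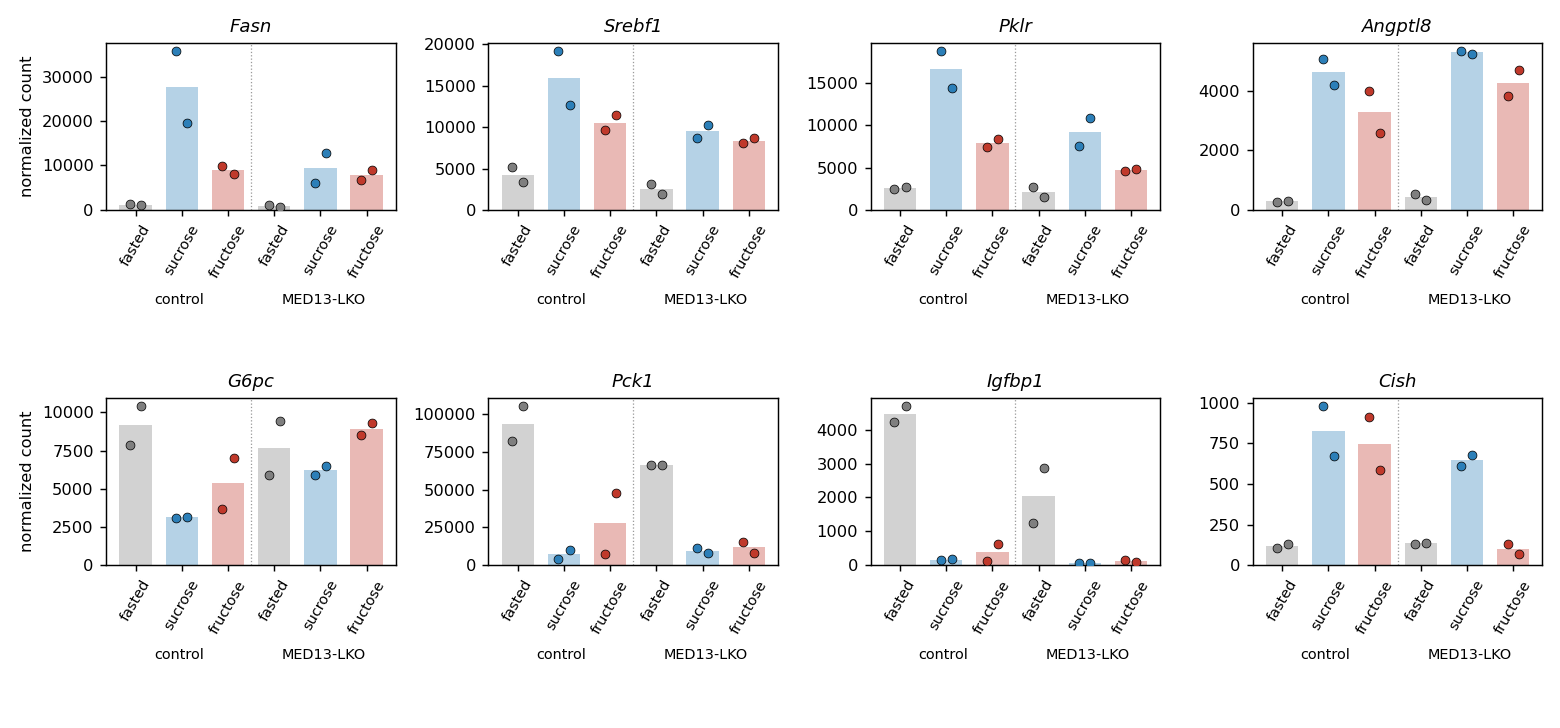
Normalized counts (y axis) of 8 genes in the 6 groups, 1 point a mouse and bars at the mean, control on the left and MED13-LKO on the right of the dotted line (grey fasted, blue sucrose-fed, red fructose-fed). In MED13-LKO, fructose-fed G6pc (8529 and 9317) lies within the fasted range (5887 and 9423), while Cish is high with sucrose (612 and 676) and not with fructose (129 and 66.1).

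Insulin and FOXO1 responsive genes were the list with the lowest median, -0.58, and 6 of 14 tested fell and none rose. Without fructose-fed replicate 2 none of the 6 was called, while 3 genes of the list were called without fasted replicate 1 and 1 without fasted replicate 2. Igfbp1, a secreted IGF-binding protein lowered by insulin, is shown with G6pc because both promoters hold the core CAAAACA of the insulin response sequence (capitals; TGTTTTG is the same core on the other strand), which FOXO proteins are known to bind. The core was chosen after the values were seen. The 250 bases before each start are from RefSeq, GRCm38.p6, both on the plus strand, Igfbp1 at chr11:7197537-7197786 and G6pc at chr11:101367466-101367715.
Igfbp1: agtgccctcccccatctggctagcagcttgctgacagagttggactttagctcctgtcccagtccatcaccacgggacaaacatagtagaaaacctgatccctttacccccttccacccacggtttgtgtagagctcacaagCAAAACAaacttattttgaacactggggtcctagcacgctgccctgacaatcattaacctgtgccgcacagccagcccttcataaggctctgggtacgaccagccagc
G6pc: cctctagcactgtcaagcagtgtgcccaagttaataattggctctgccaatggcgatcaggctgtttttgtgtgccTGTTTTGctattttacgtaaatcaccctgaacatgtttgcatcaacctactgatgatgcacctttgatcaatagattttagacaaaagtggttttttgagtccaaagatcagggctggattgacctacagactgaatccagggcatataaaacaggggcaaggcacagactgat
The core begins 108 bases before the Igfbp1 start and 174 bases before that of G6pc. It was in the windows of 8.76% of the genes that fell, 3.34% of those that rose and 5.47% of all tested genes with a window, and the longer site GTAAACAA in 1.69%, 1.003% and 1.04%.

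Of these 2 genes, Igfbp1 was called and G6pc was not. Igfbp1 went from 1239 and 2860.2 to 151 and 82.7, a difference of -4.06 ± 0.64 (adjusted p = 0.00771). All fed values of Igfbp1 were far below the fasted values, which themselves differed between mice, and it was not called without fasted replicate 2 or fructose-fed replicate 2. Irs2, the insulin receptor substrate raised in fasting, fell from 263 and 489.9 to 166 and 133 (-1.27 ± 0.28, adjusted p = 0.0284). In control livers it fell from 703 and 942 to 122 and 170.0 (-2.49 ± 0.28). The difference between genotypes, 1.22 ± 0.40, did not pass (adjusted p = 0.425). Klf15 (-1.19), Foxo3 (-0.98) and the insulin receptor Insr (-0.48) also fell.

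Fat storage and release genes fell in 4 of 14 tested cases and rose in none, with a median of -0.09. The 2 lipins, phosphatidate phosphatases that also act as coactivators in fasting, were the largest. Lpin2 fell from 8483 and 10198 to 2677 and 2268 (-1.92 ± 0.19, adjusted p = 0.00178) and was called under all 11 alternatives. Lpin1 fell from 4162 and 3461 to 1580 and 729 (-1.82 ± 0.30, adjusted p = 0.00903), a call lost without fasted replicate 1. Plin5, which ties lipid droplets to mitochondria, fell from 2302 and 2071 to 972 and 853 (-1.26 ± 0.14, adjusted p = 0.00266) and was called under all 11 alternatives. In the control livers Plin5 had 845 and 1159 and 847 and 781 (-0.28 ± 0.14), and the difference between genotypes was -0.98 ± 0.20 (adjusted p = 0.205). Pnpla2, the adipose triglyceride lipase, fell by 0.78 (adjusted p = 0.00681) but was not called without fasted replicate 2 or fructose-fed replicate 2. Pnpla3 was low in the fasted mice at 7.23 and 10.2, and its rise to 38.4 and 58.0 did not pass (2.33 ± 0.71, adjusted p = 0.08).

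Of 26 PPAR alpha genes, which carry fatty acid oxidation in the fasted liver, 4 fell, where 3.58% of all tested genes fell. Negative differences were seen in 25 of the 26, and the median was -0.30. In control livers the median was 0.01, with 1 risen and 1 fallen. None of the 4 was called when either fasted library or fructose-fed replicate 2 was left out. Angptl4, a secreted lipoprotein lipase inhibitor, fell from 4119 and 4609 to 596 and 529 (-2.95 ± 0.50, adjusted p = 0.0101). Pex11a, which divides peroxisomes, fell from 3178 and 3324 to 1855 and 1554 (-0.94 ± 0.17, adjusted p = 0.015). Cpt1a, which admits fatty acids to mitochondria, fell by 0.73. Fgf21, a secreted hormone outside this list, was low at 50.7 and 34.4 fasted and 33.5 and 39.8 fructose-fed, with overlapping groups. Its control values were 1.13 and 4.82 fasted and 16.6 and 25.8 fructose-fed, which did not pass (2.63 ± 0.67, adjusted p = 0.0518). The Fgf21 difference between genotypes did not pass either (-2.81 ± 0.95, adjusted p = 0.442).

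Of 24 cholesterol synthesis genes, 4 rose and none fell, where 2.94% of all tested genes rose. Positive differences were seen in 22 of the 24, and the median was 0.47. In control livers 1 rose, 2 fell and the median was -0.11. None of the 24 was called without fasted replicate 2 or without fructose-fed replicate 2, against 6 without fasted replicate 1 and 2 without fructose-fed replicate 1. Mvd, mevalonate diphosphate decarboxylase, rose from 166 and 122 to 419 and 542 (1.74 ± 0.31, adjusted p = 0.0131). Its whole span lies within that of Gm20388 on the other strand. Sqle, squalene epoxidase, rose from 1088 and 579 to 2060.2 and 1984 (1.35 ± 0.28, adjusted p = 0.0227), and control livers had 2032 and 1608 and 2098 and 1328. The Sqle difference between genotypes was 1.46 ± 0.40 (adjusted p = 0.323). Sc5d, a late sterol desaturase, rose by 0.63. Srebf2, the SREBP-2 gene, had a difference of -0.20 ± 0.13 (adjusted p = 0.397).

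Urea cycle and amino acid breakdown genes fell in 6 of 22 cases and rose in none, with a median of -0.29. The largest changes were in enzymes that feed amino acid carbon to glucose. Sds, serine dehydratase, fell from 3764 and 4076 to 2414 and 1173 (-1.22 ± 0.27, adjusted p = 0.0293). Tat, tyrosine aminotransferase, which glucocorticoids induce, fell from 66664 and 62038 to 28845 and 30809 (-1.11 ± 0.22, adjusted p = 0.0205). The control mice had 97464 and 123400 fasted and 17264 and 30692 fructose-fed, a fall of 2.25, and the genotypes' responses differed by 1.14 ± 0.32 (adjusted p = 0.34). Tdo2, Aass and Prodh, which open the breakdown of tryptophan, lysine and proline, fell by 0.69, 0.65 and 0.54, and Arg1, arginase, by 0.39. Leaving out fructose-fed replicate 2 lost the call of every one of these genes, and only Aass kept its call whichever other library was left out. Sds and Tdo2 kept theirs without fructose-fed replicate 1 alone, and Prodh without that library or without fasted replicate 2. Arg1 and Tat were not called when any of the 4 libraries was left out.

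Glycogen genes gave no call in 14 tested, with a median of -0.11. Gys2, liver glycogen synthase, had 5695 and 5594 against 4755 and 5545, and Pygl, liver glycogen phosphorylase, 6486 and 5067 against 7138 and 8379 (0.43 ± 0.12, adjusted p = 0.0617). Ppp1r3b, a subunit that directs phosphatase to glycogen, had 1692 and 816 against 2122 and 1913 (0.78 ± 0.27, adjusted p = 0.113). A lack of calls here does not show equal levels.

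**Figure D4:**
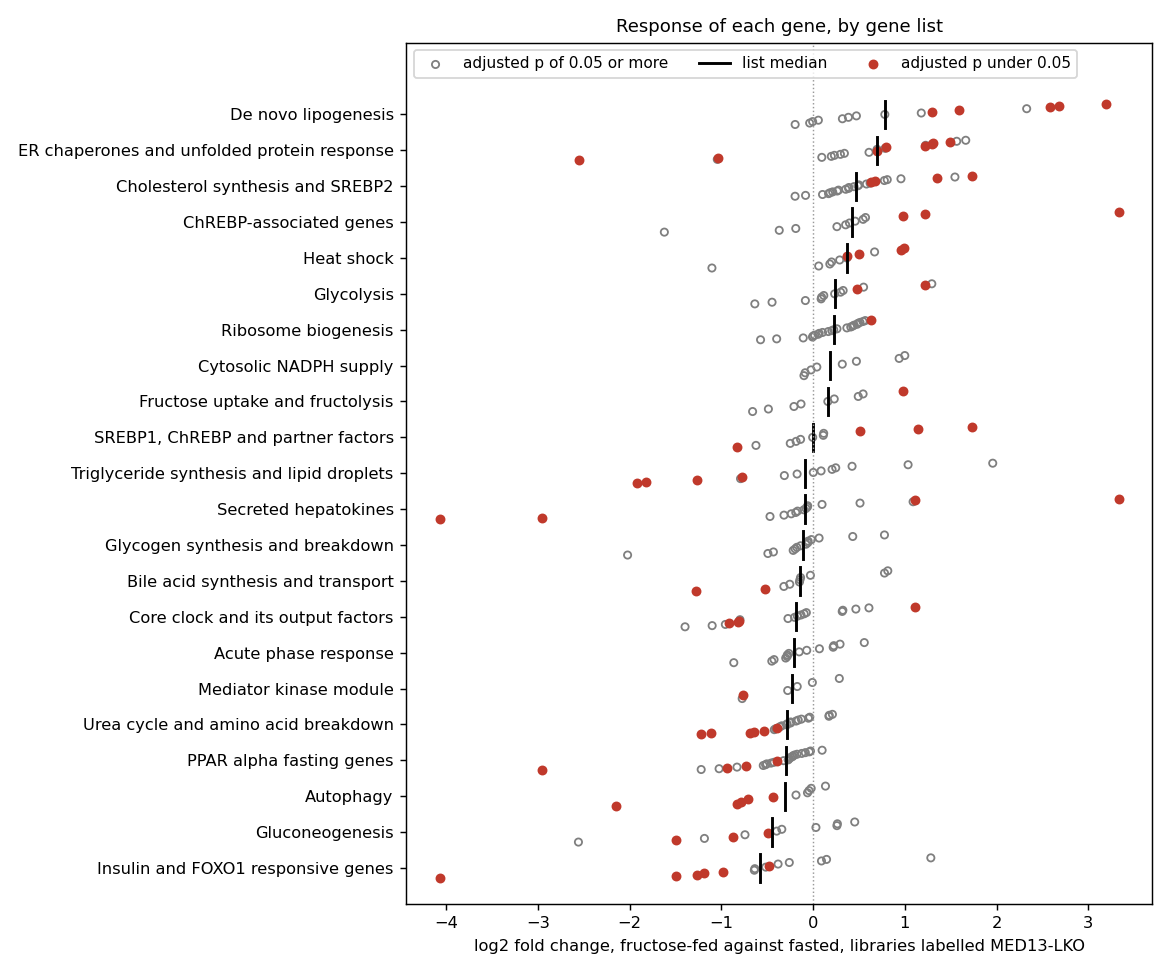
Log2 fold change (x axis, fructose-fed against fasted, MED13-LKO) of each tested gene in 22 gene lists, 1 point a gene (red filled, adjusted p under 0.05; grey open, not), with a black bar at each list's median. Medians run from -0.58 for insulin and FOXO1 responsive genes to 0.78 for de novo lipogenesis.

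Endoplasmic reticulum chaperones and unfolded protein response genes went in both directions, and the number of rises depended on single libraries. Of 21 genes 6 rose and 2 fell, with a median of 0.70. Hyou1, a chaperone of the endoplasmic reticulum, rose from 3545 and 2712 to 5656 and 10439 (1.31 ± 0.26, adjusted p = 0.0201). Hspa5, the main chaperone BiP, had 20549.5 and 15414 in the fasted and 27113 and 63915 in the fructose-fed mice and did not pass (1.23 ± 0.34, adjusted p = 0.0595). In both genes fructose-fed replicate 2 was far above replicate 1. Without fructose-fed replicate 1, 11 of the 21 rose, and without replicate 2 none did; 1 rose without fasted replicate 1 and 0 without fasted replicate 2. Manf, Pdia4, Dnajb11, Ddit3 and Atf3 were the other risen genes, by 0.69 to 1.49.

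Chac1 and Herpud1 were the list's falling genes. Chac1, a glutathione-degrading target of ATF4, fell from 86.8 and 76.2 to 15.8 and 10.7 (-2.55 ± 0.32, adjusted p = 0.00338) and was called under all 11 alternatives. In control livers it had 45.3 and 71.1 and 49.6 and 47.2, and the genotypes' responses differed by -2.33 ± 0.45 (adjusted p = 0.195). Herpud1, part of the degradation machinery of the endoplasmic reticulum, fell from 16294 and 13776 to 7414 and 7203 (-1.04 ± 0.16) and was not called without fasted replicate 1 or fructose-fed replicate 2. Heat shock genes rose in 4 of 11 cases (Hsp90aa1 by 0.99, Bag3 by 0.96, Hspa8 by 0.50 and Hsp90ab1 by 0.37), with none called when either fasted library or fructose-fed replicate 2 was left out. Without fructose-fed replicate 1 there were 2. Their median was 0.37.

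Autophagy genes fell in 5 of 10 cases and rose in none, with a median of -0.31. Depp1, a FOXO target, fell from 499 and 491 to 131 and 93.9 (-2.15 ± 0.20, adjusted p = 0.00178), and it was called under all 11 alternatives. Its span lies within that of Rassf4 on the other strand. Atg14, Gabarapl1, Bnip3 and Map1lc3b, which act in building or loading autophagosomes, fell by 0.83, 0.79, 0.71 and 0.43. The list held 1 call without fructose-fed replicate 2, 1 without fasted replicate 2 and 3 without fasted replicate 1.

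Clock genes had 1 of 18 risen and 3 fallen, with a median of -0.19. Bhlhe40, a repressor that feeding induces, rose from 1264 and 1363 to 2646 and 3045 (1.11 ± 0.15, adjusted p = 0.00464). Nfil3, Nr1d2 and Rora fell by 0.91, 0.82 and 0.81. Per1 had 954 and 1062 against 548 and 266 (-1.40 ± 0.40, adjusted p = 0.067) and Dbp 830.4 and 783 against 581 and 296 (-0.96 ± 0.25, adjusted p = 0.0523), with fructose-fed replicate 2 the lowest in both. Without fructose-fed replicate 1, 7 clock genes were called lower, without replicate 2 none in either direction, and without either fasted library 1. The time of sampling differed between fasted and fed mice, and its part was not tested.

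The remaining lists cover bile acids, secreted hepatokines, ribosome biogenesis and the acute phase response. Bile acid genes fell in 2 of 10 cases: Nr0b2, the repressor SHP, from 462 and 679 to 225 and 235 (-1.28 ± 0.31, adjusted p = 0.0401), and Cyp27a1, a sterol hydroxylase, by 0.53; neither was called when either fasted library or fructose-fed replicate 2 was left out. Cyp7a1, the rate-limiting enzyme of bile acid synthesis, had 3638 and 2489 against 7539.7 and 3533, with a wide gap between the fed mice. Of 16 secreted hepatokines 2 rose and 2 fell. Leap2, the ghrelin receptor antagonist, rose from 371 and 230.0 to 636 and 629 (1.11 ± 0.24, adjusted p = 0.0274), beside Angptl8, Igfbp1 and Angptl4 above. Leap2 was not called without fasted replicate 2 or either fructose-fed library. Ribosome biogenesis had 1 of 23 risen, Rrp12 (0.63), which was not called when any of the 4 libraries was left out, and the 14 acute phase genes had no call.

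Several of the largest changes belong to none of these lists, or to a list of another name. Mt1 and Mt2, zinc-binding metallothioneins, fell from 3073 and 2186 to 624 and 533 and from 3881 and 2404 to 198 and 206, differences of -2.17 ± 0.41 and -3.91 ± 0.39 (adjusted p = 0.0155 and 0.00178). Of the 31-base subsequences of Mt2, 58.1% occur in other genes, so its counts could be split among genes. Fkbp5, a co-chaperone of the glucocorticoid receptor, fell from 5456 and 4422 to 1673 and 985 (-1.93 ± 0.20, adjusted p = 0.00178). Crebrf, a regulator of CREB3, fell from 1093 and 1515 to 377 and 306 (-1.92 ± 0.19, adjusted p = 0.00178). Mt2, Fkbp5 and Crebrf were called under all 11 alternatives. Tmc7, a transmembrane channel-like gene, fell from 535 and 425 to 129 and 121 (-1.92 ± 0.35), and neither it nor Mt1 was called when either fasted library or fructose-fed replicate 2 was left out.

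Ccn2, a matrix-associated growth factor gene, fell from 252 and 209.6 to 38.3 and 41.7 (-2.49 ± 0.30, adjusted p = 0.00287), and was called under all 11 alternatives. Gadd45g, a stress-induced gene, fell from 334 and 1017 to 77.4 and 68.5 (-2.98 ± 0.48, adjusted p = 0.0087), with the fasted mice far apart; it was not called without fructose-fed replicate 2. With sucrose the MED13-LKO values of Gadd45g were 252 and 537, within reach of the fasted values (-0.66 ± 0.48). Its direct difference between fructose and sucrose did not pass (-2.32 ± 0.48, adjusted p = 0.227). On the rising side, Oasl1, an interferon-induced gene, went from 92.6 and 73.4 to 222 and 305 (1.64 ± 0.21, adjusted p = 0.00338). Hist1h1c, a linker histone gene, went from 348 and 680.0 to 1428 and 1882 (1.75 ± 0.31, adjusted p = 0.0122), a call lost without fasted replicate 1 or fructose-fed replicate 2. Tuba1c, an alpha tubulin, went from 1146 and 838 to 3036 and 3298 (1.69 ± 0.19), and 55.3% of its 31-base subsequences occur elsewhere. Klhdc7a went from 474 and 439 to 1270 and 1649 (1.66 ± 0.20). Aacs, which activates acetoacetate for lipid synthesis, went from 608 and 469.9 to 1766 and 1967 (1.80 ± 0.39, adjusted p = 0.0258) and was not called when any of the 4 libraries was left out or with no trend in the prior spread.

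The same feeding in control livers, which shares no library with the comparison above, changed 692 genes (5.6%), 345 up (2.79%) and 347 down (2.81%). Of the 364 genes that rose in MED13-LKO, 120 rose in control, 33.0% of the MED13-LKO list and 34.8% of the control list, and 3 fell there. Of the 443 that fell, 162 fell in control, 36.6% and 46.7% of the 2 lists, and 0 rose there. Among the genes that rose, 92.3% had a positive difference in control, against 48.7% of all tested genes, and among those that fell 94.8% had a negative one, against 51.3%. The median control difference of these genes was 0.45 and -0.40, where in MED13-LKO, which chose them, it was 0.75 and -0.72. The 2 responses are fitted with a shared estimate of spread. A call in MED13-LKO without a call in control is no test of a difference.

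**Figure D5:**
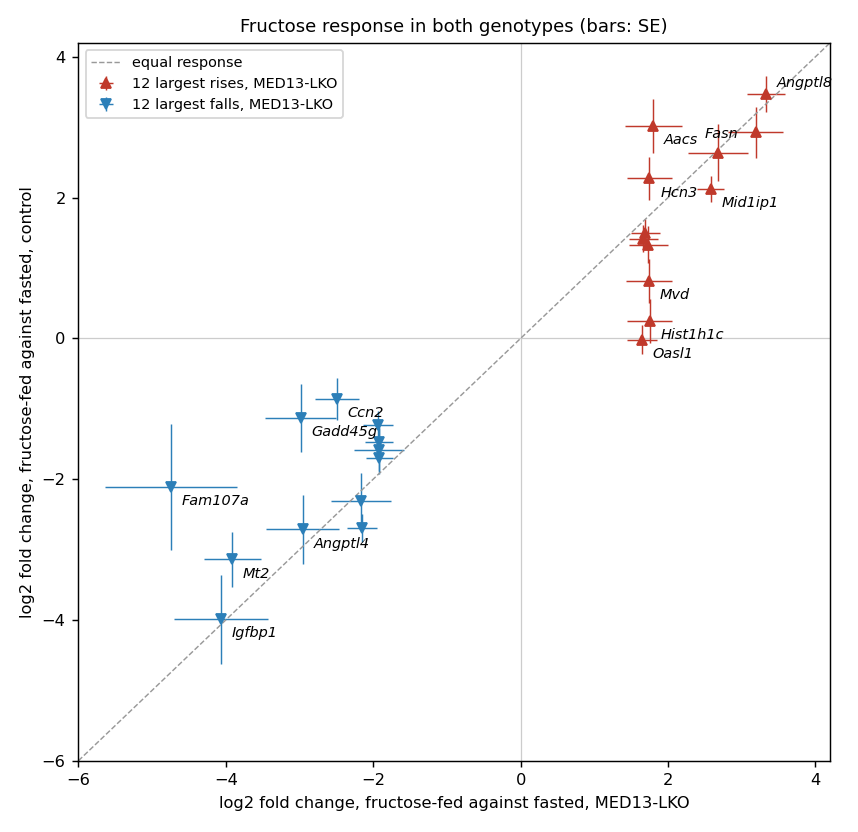
Log2 fold change with fructose in control (y axis) against MED13-LKO (x axis) for the 12 largest rises (red) and 12 largest falls (blue) in MED13-LKO, with SE bars and a dashed line of equal response. Angptl8 (3.33 and 3.47) and Igfbp1 (-4.06 and -3.99) lie near the line, and Oasl1 (1.64 and -0.02) and Hist1h1c (1.75 and 0.25) near the line of no control response; the genes were chosen on the x axis.

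The direct test of the difference between genotypes called 3 genes (0.0243% of those tested; 1170 had an unadjusted p under 0.05). They were Paqr9, Nudt16l1 and Fam177a, the last 2 resting on groups listed at 0. Paqr9, a member of the progestin and adipoQ receptor family, rose in both genotypes. It went from 2140.2 and 2038 to 3759 and 3890.5 in MED13-LKO (0.87 ± 0.09, adjusted p = 0.00178) and from 1298 and 1411 to 5021 and 5213 in control (1.92 ± 0.09). The MED13-LKO response was smaller by 1.05 on the log2 scale (adjusted p = 0.0372). Both MED13-LKO fed values lay below both control fed values, and both MED13-LKO fasted values above both control fasted values. The call was not kept when either MED13-LKO fasted or fructose-fed library, either control fasted library or control fructose-fed replicate 1 was left out.

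None of the genes in the 22 lists was called for this difference. Oasl1 had the control values 76.2 and 85.9 fasted and 85.7 and 74.4 fructose-fed, and its genotype difference of 1.66 ± 0.29 had an adjusted p of 0.195. Hist1h1c, with control values of 448 and 426 and 393 and 686, differed by 1.502 ± 0.43 (adjusted p = 0.373). Ccn2 differed by -1.63 ± 0.42 (adjusted p = 0.321). For Fasn the difference was 0.26 ± 0.52 (adjusted p = 0.921) and for Angptl8 -0.14 ± 0.36 (adjusted p = 0.932), each within 1 SE of 0.

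Sucrose, a disaccharide of glucose and fructose, was compared with the same 2 fasted MED13-LKO livers and changed 706 genes (5.71%), 276 up (2.23%) and 430 down (3.48%). The fructose and sucrose responses share those fasted libraries, so their likeness is not counted. Side by side, Fasn had 3.19 with fructose and 3.35 with sucrose, Srebf1 1.73 and 1.92, and Igfbp1 -4.06 and -4.92. For Pklr the values were 1.22 and 2.17, with sucrose-fed counts of 7582 and 10864 above both fructose-fed counts. The direct difference for Pklr did not pass (-0.95 ± 0.25, adjusted p = 0.343).

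Fructose-fed set directly against sucrose-fed MED13-LKO livers called 5 genes (0.0404%; 951 had an unadjusted p under 0.05), all lower with fructose. Cish, a cytokine-induced inhibitor of STAT5 signalling, had 129 and 66.1 with fructose and 612 and 676 with sucrose, a difference of -2.79 ± 0.31 (adjusted p = 0.0177). The fasted mice had 132 and 139, so fructose-fed mice lay at or below the fasted level. Phlda1, an immediate early-type gene, had 426 and 433 with fructose, 1775 and 2461 with sucrose and 464 and 408 fasted, a difference of -2.28 ± 0.22 (adjusted p = 0.00818). In control livers both sugars went with higher counts than fasting, Cish at 910.1 and 584 with fructose against 103 and 129 fasted and Phlda1 at 2583 and 1677 against 420.1 and 471. The genotypes' fructose responses differed by -3.19 ± 0.44 for Cish and -2.24 ± 0.31 for Phlda1 (adjusted p = 0.0677 for each), which did not pass.

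Col1a1, a collagen gene expressed by stellate cells, had 304 and 323 with fructose and 583 and 643 with sucrose (-0.96 ± 0.12, adjusted p = 0.0258), with fasted mice at 278 and 269. Nlrp12 had 0 and 1.07 with fructose, 2.06 and 0.93 fasted and 42.3 and 35.5 with sucrose, while control livers ranged higher, at 165 and 186 fasted. The fifth gene, Pmaip1, a BH3-only apoptosis gene, was listed at 0 in both fructose-fed mice, with 21.7 and 17.6 fasted and 20.8 and 14.4 sucrose-fed. When single libraries were left out, Cish and Nlrp12 lost their call without either sucrose-fed library in turn, Phlda1 without sucrose-fed replicate 2, and Col1a1 and Pmaip1 without each of the 4 libraries compared.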

How the data were processed

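Liver total RNA from 12 mice was sequenced as paired-end libraries. The authors trimmed reads with Trim Galore 0.6.5, estimated transcript abundance with kallisto 0.46.0 and normalized with DESeq2 1.24.0, naming mm10 as the build per the labels; the transcript annotation and strand setting are not given in the sources used here. The authors deposited 1 table of normalized counts per Ensembl gene (here a signal, not raw counts, since each count was divided by a size factor). Of values under 20, 51.9 to 58.9% a library were whole multiples of 1 read's worth (tolerance 0.05), so reads were not recovered and no count model was run; 16090000 to 20000000 reads on genes were estimated for the 4 libraries.

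Groups followed the sample titles. Genes with a mean of at least 10 were tested on log2(normalized count + 1) with limma 3.58.1 (R 4.3.3), 6 group means over 12 libraries, a trend in the prior spread and Benjamini-Hochberg adjustment; the fit was tested on simulated data. The 22 gene lists, the marker lists, the comparison and the naming rule were chosen with earlier results of these data known. Named genes were up to 5 members a list, 6 fixed genes (G6pc, Pck1, Fasn, Srebf1, Mlxipl, Med13) and each gene called between genotypes or sugars. The 12 largest called changes in each direction without group overlap, at a mean of 100 or more over the 4 libraries, were also named. These 12 leave out symbols of the form Gm and digits, Rik or -ps, and bare identifiers. Other members named were chosen after their values were seen, and values of some list members are not reported here. Symbols and positions came from GENCODE M21 (16222 of 16346 identifiers matched) and promoter windows from RefSeq on GRCm38.p6 (284 of 360 list genes matched). Alternatives were pseudocounts of 0.1 and 10, no filter, equal 75th percentiles, a replicate block, only the compared groups, no trend, and each library left out. Whether mice of a group shared a litter is not given in the sources used here, and p-values measure the spread between these mice.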

Additional observations from a re-analysis of the deposited data

Results flagged for a closer look

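The genotypes' responses to fructose differed in 3 genes that passed the test of the difference itself. For Paqr9 the response in MED13-LKO minus that in control was -1.05 on the log2 scale, with fructose differences of 0.87 and 1.92; it was not called with a pseudocount of 10, a replicate block, only the compared groups or no trend. For Nudt16l1 it was 7.34 (adjusted p = 0.0372), a fitted value that depends on the pseudocount and is no bound: the gene was listed at 0 in both fasted MED13-LKO and both fructose-fed control mice, with 6.90 and 5.37 in fructose-fed MED13-LKO and 30.5 and 15.7 in fasted control mice. It was not called with a pseudocount of 10, with a replicate block, with only the compared groups, or when any of the compared libraries but control fructose-fed replicate 2 was left out. For Fam177a it was 6.09 (adjusted p = 0.00493), with both fructose-fed control mice listed at 0 and 117 and 67.6 in fructose-fed MED13-LKO; 98.5% of its 31-base subsequences occur in other genes, and it was not called with a pseudocount of 10 or without MED13-LKO fasted replicate 2.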

How the results depend on the processing

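Of the 358 genes tested from the lists and the largest changes, 82 were called; none of these changed sign under the 11 alternatives, and 15 were called under each of them. Differences that were not called could change sign, that of G6pc running from -0.08 to 0.60 with 1 library left out. Of the 24 largest changes 12 were called under each alternative. The cause of the shifts below was not tested beyond what each setting removes. With only the compared groups in the fit, 414 genes were called for fructose in MED13-LKO, 27 for fructose in control and 1 for the difference between genotypes, from fewer residual samples. With no trend the counts were 459 (fructose, MED13-LKO), 372 (fructose, control), 439 (sucrose, MED13-LKO) and 3 (fructose against sucrose). A pseudocount of 10 gave 0 for the genotype difference and 8 for the sugars, and no filter gave 7 for the genotype difference. Leaving out 1 library gave 65 to 680 calls for fructose in MED13-LKO, 128 to 976 for fructose in control, 144 to 289 for sucrose in MED13-LKO, 0 to 47 for the genotype difference (47 without control fructose-fed replicate 2) and 0 to 9 for fructose against sucrose (0 without sucrose-fed replicate 2). Deviations of same-numbered fasted and fructose-fed MED13-LKO libraries correlated at 0.0479 over genes. From 2 mice a group, this value cannot show whether the mice were paired. With the replicate number as a block, 656 genes were called for fructose in MED13-LKO, 1 for the genotype difference and 3 between sugars. Leaving out fructose-fed replicate 2 or a fasted library takes away calls in nearly every list, so counts per list are limited by 2 mice a group.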

Other observations

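Tubulin genes, picked out after the values were seen and so given no test as a group, were mostly higher in fructose-fed MED13-LKO livers. Of 10 with enough counts, 8 rose and none fell, with a median of 1.02, where 2.94% of all tested genes rose. Tuba1c was called under each of the 11 alternatives, and those results are not reported here for the other tubulin genes. Tubb5, a beta tubulin with only 3.5% of its 31-base subsequences in other genes, went from 576 and 764 to 1246 and 1601 (1.09 ± 0.15, adjusted p = 0.00456). Tubb6, also with few shared subsequences, went from 121 and 112 to 185 and 186 (0.67 ± 0.17, adjusted p = 0.0478). Tubb4b (1.22), Tubb2a (1.59), Tuba4a (0.95), Tuba8 (1.61) and Tuba1b (0.49) rose with Tuba1c, but 17.1 to 78.7% of their subsequences are shared with other genes, and their reads could be split between copies. In control livers the Tubb5 difference was 0.57 ± 0.15 and that of Tubb2a 1.28 ± 0.20.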
